A study of Mus musculus with 24 samples.

Results

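The genes described here encode subunits of the Arp2/3 complex: Arpc4, Arpc1a, Arpc1b, Arpc2, Arpc3, Arpc5, Arpc5l, Actr2 and Actr3. They are 9 of 10 genes that were taken by symbol from the authors' annotation of 55487 genes, and all 10 were among the 14535 genes tested. Their mRNA was measured by strand-specific, poly(A)-selected RNA sequencing in dendritic cells grown from mouse bone marrow with the growth factor GM-CSF. All mice carried floxed Arpc4 alleles on both chromosomes. Control cultures (WT, ARPC4 Flox/Flox CD11c-Cre -/-) lacked the Cre recombinase, and knockout cultures (KO, CD11c-Cre +/-) had it as 1 copy driven by the promoter of CD11c, so that it acts where that promoter is on. The marrow donors were 8 to 10 weeks old and of both sexes. Cells in suspension were taken on days 7, 8, 9 and 10, with 3 mice per genotype and day, so that 8 groups and 24 libraries were compared. The labels name the same 6 mice on every day, so the days are not independent of each other. The labels call the cells mostly CD11c+, and nothing in them says whether any deletion was measured.

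The Arp2/3 complex starts new actin filaments on the sides of existing ones and so builds the branched networks that drive membrane protrusion, endocytosis and cell migration. ARP2 and ARP3 (from Actr2 and Actr3) resemble actin and form the first units of the daughter filament, while ARPC2 and ARPC4 make up the core that grips the mother filament. ARPC1, ARPC3 and ARPC5 complete the complex, and ARPC1 and ARPC5 each occur in alternative forms made by paralogous genes. ARPC1B is the form that predominates in blood cells, and its loss in people causes an immune deficiency. The complex is idle until WASP-family proteins such as WASP, N-WASP, WAVE and WASH bind it.

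The promoters of 5 subunit genes are shown first, since 3 of them belong to genes whose mRNA was higher on day 8 than on day 7 in both genotypes (Arpc4, Arpc2 and Actr2) and the other 2 belong to neighbouring paralogs with different levels (Arpc1a and Arpc1b). Each sequence is the 250 bases before the RefSeq gene start on GRCm38.p6, read 5′ to 3′ on the strand of the gene. They lie at chr6:113377863-113378112 (Arpc4, plus strand), chr1:74236267-74236516 (Arpc2, plus strand), chr11:20112952-20113201 (Actr2, minus strand), chr5:145083619-145083868 (Arpc1a, plus strand) and chr5:145114006-145114255 (Arpc1b, plus strand). Capitals mark matches, on either strand, to the GC box with the letters GGGCGG, the CCAAT box, the ETS core with the letters CCGGAAG, and the CArG box. Matches that touch were each counted.
Arpc4: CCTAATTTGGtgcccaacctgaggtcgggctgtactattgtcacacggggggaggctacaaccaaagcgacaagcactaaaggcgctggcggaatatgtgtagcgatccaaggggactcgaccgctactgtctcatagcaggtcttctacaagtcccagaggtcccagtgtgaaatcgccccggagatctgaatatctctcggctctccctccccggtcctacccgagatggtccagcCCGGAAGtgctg
Arpc2: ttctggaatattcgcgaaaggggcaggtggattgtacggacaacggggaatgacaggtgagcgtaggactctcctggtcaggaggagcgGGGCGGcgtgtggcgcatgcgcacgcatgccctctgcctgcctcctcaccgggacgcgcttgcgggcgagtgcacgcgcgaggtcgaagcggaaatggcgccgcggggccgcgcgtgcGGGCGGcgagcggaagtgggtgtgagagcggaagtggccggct
Actr2: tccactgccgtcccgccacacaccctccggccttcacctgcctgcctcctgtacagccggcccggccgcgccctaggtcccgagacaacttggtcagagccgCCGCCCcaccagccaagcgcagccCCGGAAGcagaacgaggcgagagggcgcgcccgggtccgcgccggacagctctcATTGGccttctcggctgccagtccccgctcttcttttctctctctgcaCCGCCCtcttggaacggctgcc
Arpc1a: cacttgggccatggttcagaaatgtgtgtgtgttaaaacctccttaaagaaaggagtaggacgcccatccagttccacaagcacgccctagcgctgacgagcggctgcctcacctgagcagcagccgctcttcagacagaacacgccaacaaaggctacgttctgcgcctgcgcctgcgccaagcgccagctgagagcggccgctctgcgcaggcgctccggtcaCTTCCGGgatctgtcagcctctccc
Arpc1b: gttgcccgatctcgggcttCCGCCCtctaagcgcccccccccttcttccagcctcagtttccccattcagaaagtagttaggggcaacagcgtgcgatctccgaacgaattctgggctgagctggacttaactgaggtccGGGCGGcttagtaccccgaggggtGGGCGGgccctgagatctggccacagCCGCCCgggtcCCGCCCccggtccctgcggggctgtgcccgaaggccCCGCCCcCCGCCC

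RefSeq promoters were found for 8 of the 9 genes, the exception being Arpc5l. The Arpc4 promoter held a CArG box, the element bound by serum response factor, at the far end of the window, and an ETS core close to the start. A CArG box was present in 1.47% of the 32851 RefSeq promoters of this length and in 1 of the 8 subunit promoters. An ETS core was present in 5 of the 8 subunit promoters and in 6.91% of all promoters. GC boxes were found in 5 of the 8 and in 32.7% of all promoters, and a CCAAT box in 2 of the 8 and in 33.8% of all. Neither TATAAA, present in 12.4% of all promoters, nor the PU.1 core GAGGAAGT, present in 2.44%, occurred in these 8 windows. The Arpc1b promoter held 7 GC boxes in 250 bases with a GC content of 68.4%, against none in the Arpc1a promoter, whose GC content was 60.8%; the median over all promoters was 52.4%. The 8 windows held 14 to 37 CpG (a C followed by a G) each, against a median of 6 over all promoters. GGGCGG and CCGGAAG each contain a CpG, and the shares of all promoters were not matched for CpG content. These matches describe letters in the window and were not tested for binding.

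Library totals ran from 19952047 to 31049798 counts. Itgax, which encodes CD11c, was present in every library at 750 to 1661 CPM (read counts scaled to library size with TMM factors), and the 3 T cell markers together reached at most 1.24 CPM. Macrophage and neutrophil markers were present in all libraries, at summed levels of 1112 to 2289 and 1527 to 5661 CPM. The KO mouse numbers could not be followed across days with certainty: the Y-linked gene Ddx3y was high in WT mouse 63 on all 4 days, but in KO under number 64 on days 7 and 9, 68 on day 8 and 67 on day 10. Results that use the numbers are given with this exchange in mind, and the comparisons of groups within a day do not use them. In these bulk samples, fewer cells of a type and less mRNA per cell cannot be told apart.

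The subunit mRNAs differed widely in level. On the length-scaled TPM scale, which allows genes to be compared, Arpc2 was the most abundant in all 24 libraries, at 778 to 1304 TPM, followed by Arpc5 at 548 to 833 TPM. Arpc1b and Actr3 came next, at 311 to 638 and 398 to 570 TPM, then Actr2 at 244 to 509, Arpc3 at 238 to 346 and Arpc4 at 183 to 361 TPM. Levels dropped sharply after these 7 genes. Arpc1a stood at 66.6 to 97.4 TPM and Arpc5l at 25.0 to 52.3 TPM.

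**Figure D1:**
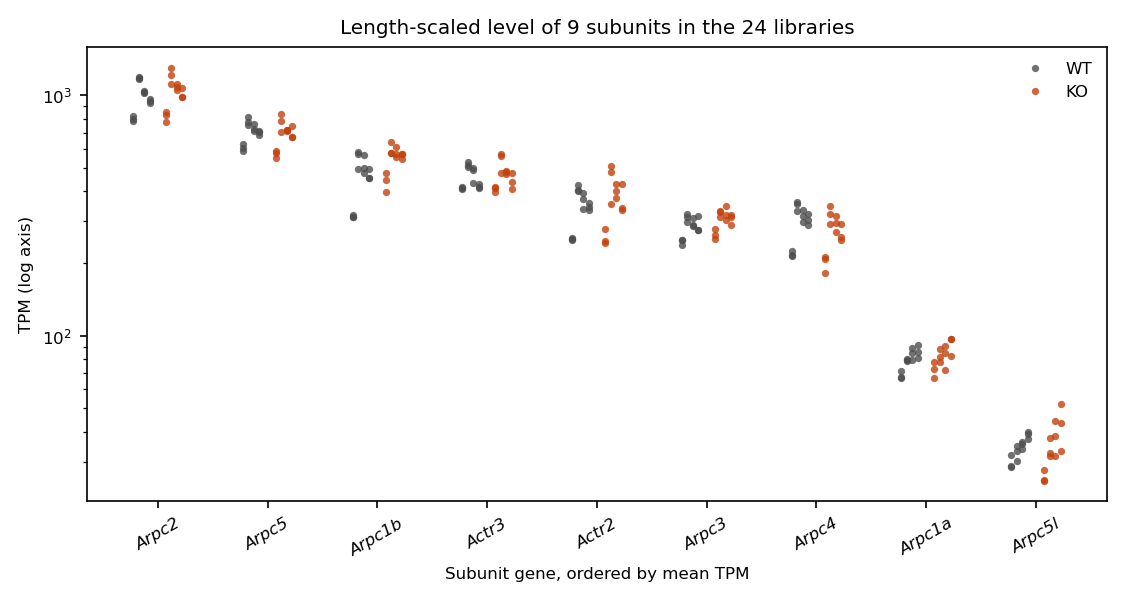
TPM on a log axis for each of 9 subunit genes, with 1 point per library, WT in grey and KO in orange, and days 7 to 10 running left to right within each cluster of points. Arpc2 sits highest in all 24 libraries, and Arpc1a and Arpc5l lie below the other 7 genes in all of them.

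Neighbours in this order were not always separated. Arpc1b exceeded Actr3 in 18 of 24 libraries, Actr2 exceeded Arpc3 in 20 and Arpc3 exceeded Arpc4 in 13, while each other neighbouring pair kept its order in 24 of 24. On day 7 in WT, Actr3 (412 ± 3.06 TPM, SD, n = 3) lay above Arpc1b (314 ± 4.76) without overlap, whereas on day 10 in KO Arpc1b (561 ± 15.7) lay above Actr3 (440 ± 34.9) without overlap. Arpc3 lay above Arpc4 without overlap on day 7 in WT and in KO, and Arpc4 above Arpc3 without overlap on day 8 in WT, while the ranges of this pair overlapped in the other 5 groups. The TPM values correspond to counts divided by 1 fixed length per gene, equal in ratio to the merged exons of GENCODE M21, so a gene with long unused exons is listed too low.

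Arpc4, the floxed gene, lies at chr6:113378115-113390448 on the plus strand (GENCODE M21, GRCm38), and encodes the subunit that joins ARPC2 in the core of the complex. On day 7 the 3 WT libraries had 189, 188 and 199 CPM and the 3 KO libraries 155, 170 and 182 CPM. On day 8 they had 270, 246 and 265 CPM in WT and 230, 231 and 223 CPM in KO. Every KO library was below every WT library on both days. On day 9 the values were 238, 219 and 226 CPM in WT and 199, 201 and 204 CPM in KO, and on day 10 they were 210, 208 and 242 CPM in WT and 185, 184 and 173 CPM in KO. The groups again did not overlap. Only 25 of the 14535 genes, or 0.172%, were lower in KO without overlap on all 4 days, and Arpc4 was the 1 subunit among them. The 4 days share the same 3 mice per genotype.

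KO cultures kept most of the Arpc4 mRNA seen in WT. The level in KO was 87.9% of that in WT on day 7 (95% interval 79.8% to 96.9%), 87.7% on day 8 (79.7% to 96.6%), 88.4% on day 9 (80.3% to 97.4%) and 82.1% on day 10 (74.6% to 90.5%). Without KO 64, the lowest library of day 7, the log2 fold change on that day was -0.10 in place of -0.19. After adjustment over all genes tested, the difference did not pass the threshold of 0.05 on any day (adjusted p = 0.177, 0.69, 0.433 and 0.225). The DESeq2 Wald test alone called it on day 10, with a log2 fold change of -0.28 and an adjusted p of 0.0236. The difference in the change from day 7 to day 10 was -0.10 (95% interval -0.30 to 0.10 on the log2 scale), with an adjusted p of 0.931. The counts cover the whole gene, and the labels do not say which exons are floxed, so these values do not measure the loss of the deleted part. Itgax, whose promoter drives the Cre, was lower in KO without overlap on day 7 (1068 to 1315 CPM in WT and 871 to 993 in KO) and on day 9 (1348 to 1590 and 1013 to 1287), at log2 fold changes of -0.30 and -0.29 (adjusted p = 0.383 and 0.7), and its groups overlapped on day 10. On day 8 it had 907 to 1020 CPM in WT and 750 to 953 CPM in KO. Its part in the differences of Arpc4 and Arpc1b was not tested. Ttll3, on the same strand, shares 283 exonic bases with Arpc4 and had 8.87% as many counts as Arpc4.

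**Figure D2:**
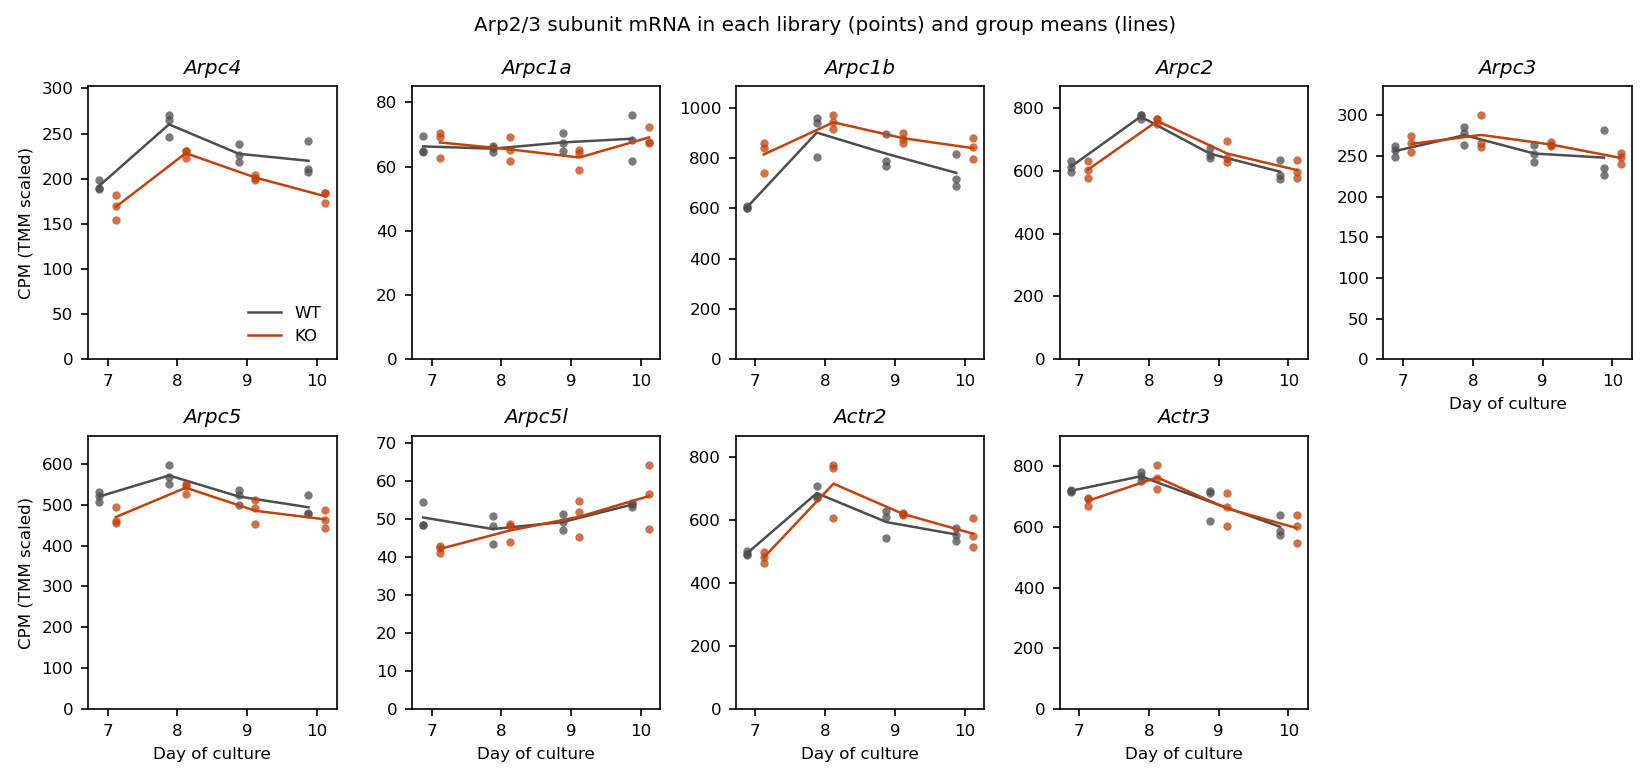
CPM of 9 subunit genes by day of culture, with 1 point per library and a line through the 3-library means, WT in grey and KO in orange; each axis starts at 0. The KO points of Arpc4 lie below the WT points on all 4 days, and the WT points of Arpc1b on day 7 (602 to 608 CPM) lie below all other Arpc1b points.

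Arpc4 was also compared with the rest of the complex inside each library, which does not depend on how libraries are scaled. Arpc4 made up 7.45% ± 0.125 (SD, n = 3) of the summed TPM of the 10 genes in WT on day 7 and 6.56% ± 0.263 in KO. The shares were 8.28% ± 0.276 and 7.38% ± 0.033 on day 8, 8.18% ± 0.437 and 7.31% ± 0.324 on day 9, and 8.48% ± 0.217 and 7.02% ± 0.147 on day 10. The 3 KO libraries lay below the 3 WT libraries on each day. Measured as the log2 ratio of Arpc4 to the mean of the 8 other abundant subunits, KO minus WT was -0.18, -0.19, -0.18 and -0.30 on the 4 days, again without overlap. Among the 9 subunits compared this way, Arpc4 was the only one whose ratio was separate in the same direction on all 4 days.

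On days 8, 9 and 10 no subunit passed the threshold between the genotypes. On day 7, 1 of the 10 did, Arpc1b, where 1.45% of all genes tested were called in either direction. The shares of all genes called were 0.00688% on day 8, 0.00688% on day 9 and 0.0138% on day 10, so a count of 0 among 10 genes is near the background. At an unadjusted p under 0.05, edgeR gave 4 subunits on day 7 (Arpc4, Arpc1b, Arpc5 and Arpc5l), where 15.7% of all genes were under it, and 1, 1 and 2 on days 8, 9 and 10 (5.91%, 8.15% and 7.3% of all genes). On those 3 days the DESeq2 Wald test called 0, 0 and 1 (0.0998%, 0.635% and 0.299% of all genes with an adjusted p), and limma on log2(TPM + 1) called 0 on each. Across the 10 genes the median log2 fold change was -0.05, -0.01, -0.02 and 0.00 on the 4 days, against -0.01, 0.00, 0.00 and 0.00 over all genes tested. Besides Arpc4, none of the 9 subunits described here on days 8 to 10 had a fold change whose size exceeded 0.18 on the log2 scale. The half-width of the 95% intervals of these 9 genes was at most 0.19, the widest being that of Arpc5l.

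**Figure D3:**
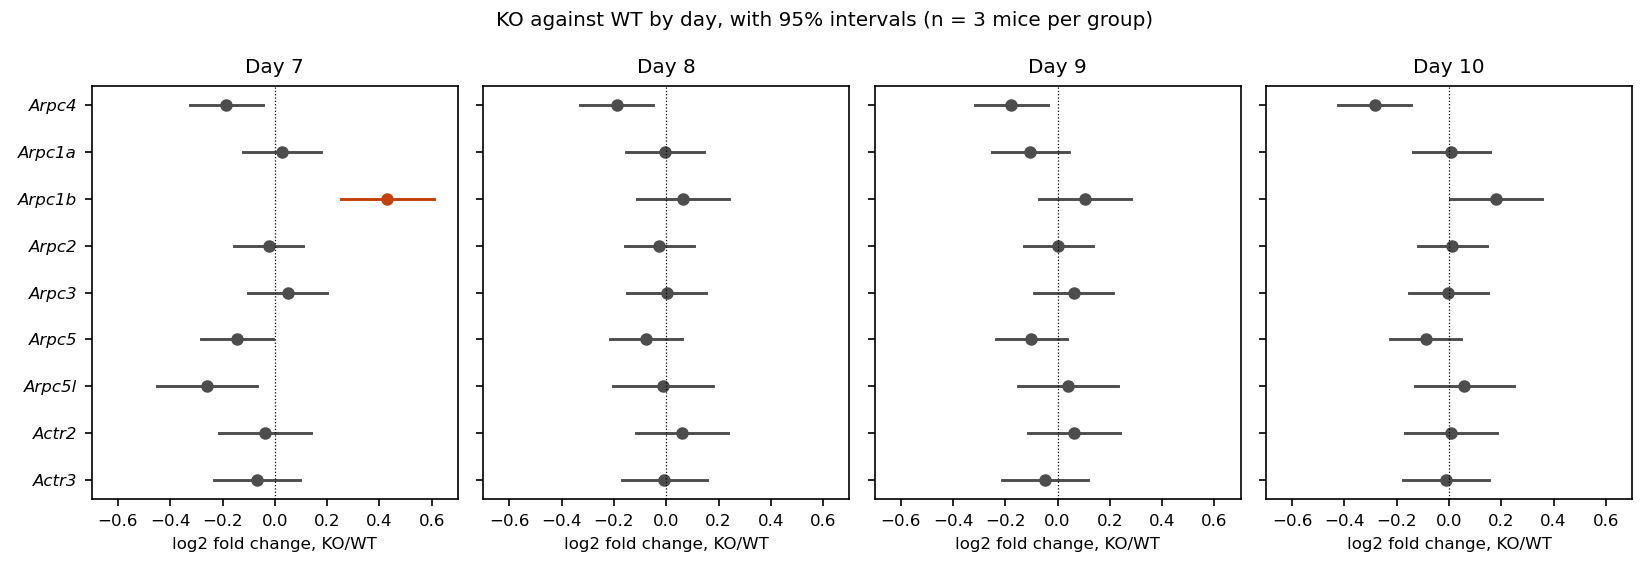
Log2 fold change of KO against WT for 9 subunit genes on each day, with 95% intervals from the edgeR fit (n = 3 mice per group); orange marks an adjusted p under 0.05. Arpc1b on day 7 is the 1 coloured gene, and the intervals of Arpc4 lie below 0 on all 4 days.

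Arpc1b, at chr5:145114215-145130705 on the plus strand, encodes the ARPC1 form of blood cells. On day 7 its CPM was 603, 608 and 602 in WT and 743, 842 and 859 in KO. All 3 KO libraries exceeded all 3 WT libraries, on a day when groups did not overlap in 26.2% of all genes tested. The log2 fold change was 0.43 (SE 0.085), or 135% of WT (95% interval 119% to 152%), with an adjusted p of 0.016. Relative to the other abundant subunits in the same library, Arpc1b was higher in KO by 0.51 on the log2 scale on day 7, without overlap. The call was lost (adjusted p of 0.0569 to 0.124) when any 1 of WT 63, 65 or 66 or KO 67 or 68 was left out, with log2 fold changes of 0.40 to 0.44, and was kept without KO 64 (0.52, adjusted p = 0.00939).

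On the later days Arpc1b had 959, 807 and 940 CPM in WT and 915, 942 and 971 CPM in KO on day 8, 894, 769 and 789 against 902, 861 and 875 on day 9, and 687, 719 and 818 against 795, 882 and 843 on day 10. The groups overlapped in CPM on each of these days. Relative to the other abundant subunits in the same library, Arpc1b was higher in KO by 0.10, 0.14 and 0.22 on the log2 scale, with overlap on days 8 and 9 and without overlap on day 10. The log2 fold changes were 0.06, 0.11 and 0.18, with adjusted p of 0.96, 0.846 and 0.664. The difference between genotypes in the change from day 7 to day 8 was -0.37 (95% interval -0.62 to -0.12), with an unadjusted p of 0.00626 and an adjusted p of 0.729.

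Markers of other cell types in the culture were also unequal on day 7. Summed over 7 genes, neutrophil markers stood at 1527, 2049 and 3157 CPM in WT 63, 65 and 66. They stood at 2169, 5569 and 3177 CPM in KO 64, 67 and 68. KO 64 lay inside the WT range, KO 68 just above it and KO 67 further above. In the same order of mice, macrophage markers had 1728, 1887 and 1703 CPM in WT and 2227, 1694 and 2289 CPM in KO. Mast cell and basophil markers had 14.1, 21.2 and 18.5 CPM in WT and 17.5, 65.8 and 36.3 CPM in KO. Erythroid markers did not overlap, at 0.04 to 0.48 CPM in WT and 0.56 to 0.81 CPM in KO. The part of these lists in the Arpc1b difference was not tested. Pdap1, which lies on the opposite strand and shares 931 exonic bases with Arpc1b, had a log2 fold change of -0.06 (adjusted p = 0.756) in the same comparison. Whether the strand was used in counting is not given in the sources used here. Gm5637, a predicted gene that shares 104 stretches of 100 bases with Arpc1b, had 639 counts over the 24 libraries in all.

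The small subunits of the ARPC5 type were lower in KO on day 7, without reaching the threshold. ARPC5 ties ARP2 into the complex, and ARPC5L is its alternative form. Arpc5 had 506, 532 and 522 CPM in WT and 455, 461 and 494 CPM in KO. Arpc5l had 48.5, 48.3 and 54.4 CPM in WT and 41.0, 42.9 and 42.5 CPM in KO. Neither gene's groups overlapped, and the log2 fold changes were -0.15 (adjusted p = 0.284) and -0.26 (adjusted p = 0.17). Actr3 was also separate on day 7, at a log2 fold change of -0.07 (adjusted p = 0.719), and Arpc2 on day 8 at -0.03 (adjusted p = 0.987). Groups did not overlap in 26.2% of all genes tested on day 7 and in 9.39% on day 8. Actr2, Arpc1a and Arpc3 overlapped between the genotypes on all 4 days.

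The subunits had most of their calls between day 7, when cells were replated, and day 8. Of the 10 genes, 4 rose in WT (Arpc4, Arpc1b, Arpc2 and Actr2) and 4 rose in KO (Arpc4, Arpc2, Actr2 and Arpc5), and none fell. The test called 43.4% of all genes in WT and 42% in KO in either direction, so 4 of 10 called is near that background. Of the 14535 genes tested, 3120 were called higher in WT and 3071 in KO. For the 10 genes, the middle log2 fold change was 0.12 (WT) and 0.21 (KO); for all genes it was 0.00 in either genotype. The sum of the 10 genes went from 2909 to 2975 TPM on day 7 to 4135 to 4259 TPM on day 8 in WT, and from 2907 to 3210 to 3956 to 4654 TPM in KO. On the scale of CPM with TMM factors, the sum went from 3500 to 3552 to 4242 to 4421 in WT and from 3446 to 3731 to 4219 to 4413 in KO. The log2 rise of the mean sum was 0.51 (WT) and 0.50 (KO) in TPM, and 0.31 and 0.27 in CPM. Their share of all counts rose from 0.307% to 0.351% across the day 7 libraries to 0.416% to 0.468% across those of day 8, without TMM factors.

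**Figure D4:**
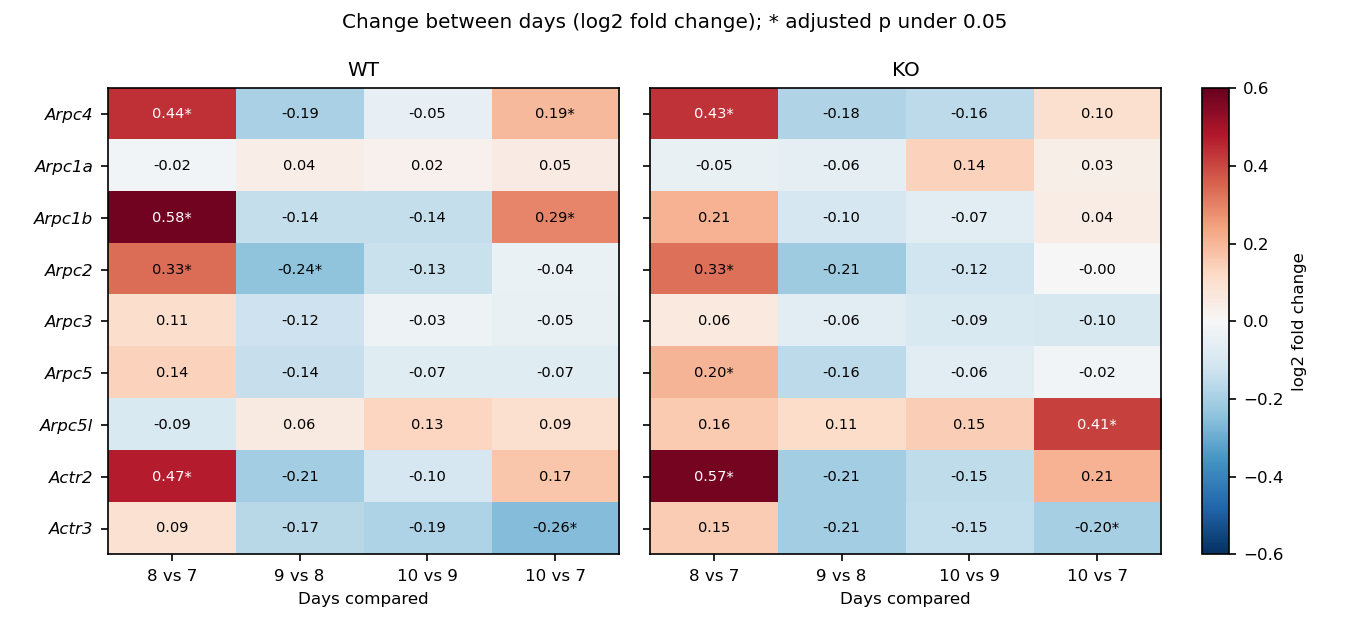
Log2 fold changes between days for 9 subunit genes in WT (left) and KO (right), coloured from blue (lower on the later day) to red (higher); an asterisk marks an adjusted p under 0.05. The column for day 8 against day 7 holds 4 asterisks in each genotype, all on positive values, and the 2 asterisks on Actr3 are on negative values.

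Actr2, at chr11:20062304-20112913 on the minus strand, encodes ARP2 and showed the largest rise in KO. Its CPM went from 503, 490 and 492 to 672, 708 and 678 in WT and from 463, 498 and 483 to 775, 765 and 609 in KO. All day 8 libraries exceeded all day 7 libraries in both genotypes, and KO 68 was the lowest on day 8. Between these days the groups did not overlap, in either direction, in 59.8% of all genes tested in WT and 46.6% in KO. The log2 fold change was 0.47 (SE 0.085, adjusted p = 0.000144) in WT and 0.57 (SE 0.085, adjusted p = 1.89e-05) in KO.

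Arpc4 and Arpc2, which encode the core pair, rose together. Arpc4 rose by 0.44 on the log2 scale (SE 0.067, adjusted p = 2.66e-05) in WT and by 0.43 (SE 0.067, adjusted p = 3.12e-05) in KO. Its rise differed between the genotypes by -0.003 (95% interval -0.20 to 0.19). Arpc2 went from 613, 595 and 632 to 765, 777 and 777 CPM in WT and from 577, 602 and 631 to 764, 765 and 748 CPM in KO, rising by 0.33 in each genotype (adjusted p = 0.00026 and 0.000294). The day 8 values of Arpc2 lay within 748 to 777 CPM in all 6 libraries. These rises of Arpc4, Arpc2 and Actr2 passed the threshold under all 15 alternative settings in both genotypes.

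With edgeR, Arpc1b was called in WT and Arpc5 in KO. Arpc1b rose by 0.58 (SE 0.085, adjusted p = 1.74e-05) in WT from its low day 7 level, and had a log2 fold change of 0.21 (SE 0.085, adjusted p = 0.052) in KO. Arpc5 rose by 0.20 (SE 0.066, adjusted p = 0.0165) in KO, and had 0.14 (adjusted p = 0.0995) in WT. Arpc1b in KO was called under 4 of 15 alternative settings and Arpc5 in WT under 3. The DESeq2 Wald test called 5 of 10 in each genotype (37.4% of all genes with an adjusted p in WT and 36% in KO), and edgeR with the labelled mouse as a block called 4 in WT and 5 in KO (42.2% and 40.9% of all genes). The call of Arpc5 was lost without KO 64 (0.17, adjusted p = 0.151) or KO 67 (0.20, adjusted p = 0.0684). No subunit passed edgeR's test of a difference between the genotypes in this change, where 0.0275% of all genes were called. Arpc1b was the 1 subunit with an unadjusted p under 0.05, where 4.71% of all genes were under it. DESeq2 and limma called 0 subunits (0.195% of all genes with an adjusted p and 0% of all genes). Arpc1a, Arpc3, Arpc5l and Actr3 were not called by edgeR in either genotype. In all, limma on log2(TPM + 1) called 8 of 10 in each genotype, where it called 46.8% of all genes in WT and 46% in KO, among them Arpc3 and Actr3 in both, Arpc1a in WT and Arpc5l in KO.

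After day 8 there were few calls. From day 8 to day 9, Arpc2 fell in WT by 0.24 (adjusted p = 0.0323), to 640, 673 and 651 CPM, and no other subunit passed with edgeR, where 5.4% of all genes were called. The DESeq2 Wald test called 2 subunits there, Arpc2 and Arpc4 (-0.20, adjusted p = 0.0341), where it called 10.3% of all genes with an adjusted p, and limma on log2(TPM + 1) called 0 (3.58% of all genes). The fall of Arpc2 lost its call (adjusted p of 0.0552 to 0.243) without WT 63, 65 or 66 or KO 68, with log2 fold changes of -0.25 to -0.23. In KO edgeR called 0 (2.33% of all genes) with 5 at an unadjusted p under 0.05 (18.7% of all genes), the DESeq2 Wald test called 1 (7.35% of all genes with an adjusted p), limma on log2(TPM + 1) called 0, and Arpc2 had a log2 fold change of -0.21 (adjusted p = 0.074). With the mouse as a block and the KO numbers exchanged after Ddx3y, 2 subunits were called in WT and 1 in KO (11.7% and 8.91% of all genes). Of the 10 genes, 7 had negative values in WT and 8 in KO with edgeR. From day 9 to day 10 edgeR called 0 in WT (3.6% of all genes) and 0 in KO (0.0963% of all genes). DESeq2 and limma also called 0. At an unadjusted p under 0.05, edgeR gave 1 subunit in each genotype. Of the 14535 genes tested, 2570 were under it in WT and 1738 in KO, so 1 of 10 is near that background. The share of all genes called in KO moved with 1 mouse number: without KO 67, 14.2% of all genes were called, and 1 subunit, Arpc5l (0.30, adjusted p = 0.0327).

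Between day 7 and day 10, subunits were called in both directions. In WT, Arpc4 rose by 0.19 (adjusted p = 0.0273), Arpc1b rose by 0.29 (adjusted p = 0.00983), and Actr3, which encodes ARP3, fell by 0.26 (adjusted p = 0.0133), so that 3 of 10 were called where 37% of all genes were. In KO, Arpc5l rose by 0.41 (SE 0.092, adjusted p = 0.00151) and Actr3 fell by 0.20 (adjusted p = 0.0499), so that 2 of 10 were called where 36.8% of all genes were. With the mouse as a block, 3 of 10 were called with the labelled numbers (37.3% of all genes), and with the KO numbers exchanged after Ddx3y 4 of 10 were called (44.1% of all genes), among them Actr2, which rose by 0.21 in that fit (adjusted p = 0.0237). Actr3 had 723, 717 and 718 CPM on day 7 and 575, 588 and 640 CPM on day 10 in WT, and 695, 669 and 694 against 603, 640 and 546 CPM in KO. In both genotypes every day 10 library was below every day 7 library. Days 7 and 10 did not overlap, in either direction, in 51.7% of all genes tested in WT and 43.2% in KO. With limma on log2(TPM + 1), which changes the values, the scaling and the test together and moved the median of all genes by 0.23 in WT and 0.25 in KO, the fold changes of Actr3 were 0.02 and 0.10. Gm8822, a predicted gene, shares 514 stretches of 100 bases with Actr3 and had 1158 counts over all libraries.

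Set against the other abundant subunits in the same library, which no scaling of libraries alters, Actr3 stood lower on day 10 than on day 7. Its log2 ratio went from 0.95 ± 0.035 (SD, n = 3) to 0.61 ± 0.013 in WT and from 0.90 ± 0.086 to 0.62 ± 0.103 in KO. The ratio of Actr2 went from 0.16 ± 0.046 to 0.30 ± 0.069 in WT and from 0.14 ± 0.048 to 0.32 ± 0.107 in KO. Calls were lost when the libraries of 1 labelled mouse number were left out. In WT, Arpc4 lost its call without WT 63, 65 or 66 (0.15 to 0.23, adjusted p of 0.0629 to 0.2), Arpc1b without WT 66 (0.22, adjusted p = 0.16) and Actr3 without WT 63 or 65 (-0.22 and -0.24, adjusted p = 0.115 for each). In KO, Actr3 lost its call without KO 64 or 68 or any 1 of the WT mice, and its fold change was -0.14 (adjusted p = 0.346) without KO 68.

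Arpc5l, at chr2:39005348-39015877 on the plus strand, was the 1 subunit that edgeR called higher on day 10 than on day 7 in KO. Actr2 had 0.21 in that comparison (edgeR, adjusted p = 0.0562) and was called under 6 of 15 alternative settings. Arpc5l had 41.0, 42.9 and 42.5 CPM on day 7 and 64.2, 47.3 and 56.7 CPM on day 10. All 3 day 10 libraries were above all 3 of day 7, and their spread was wide. These days did not overlap, in either direction, in 43.2% of all genes tested in KO. In WT the values were 48.5, 48.3 and 54.4 against 53.1, 54.3 and 54.0 CPM, with a log2 fold change of 0.09 (adjusted p = 0.451). The difference between the genotypes was 0.32 (95% interval 0.05 to 0.59), with an unadjusted p of 0.0231 and an adjusted p of 0.707 (edgeR). In this test edgeR called 0 of the 10 genes, where it called 0.0619% of all genes. At an unadjusted p under 0.05 there were 2 of the 10, where 6.31% of all genes were under it. DESeq2 and limma called 0 subunits (0.285% of all genes with an adjusted p and 0.0413% of all genes). Rpl35, on the opposite strand, shares 62 exonic bases with Arpc5l and had 294% as many counts; its log2 fold change in KO was -0.02 (adjusted p = 0.916).

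From day 7 to day 8, when most calls were made, 2 of the 9 marker lists had summed levels that did not overlap in WT: markers of mast cells and basophils went from 14.1 to 21.2 to 36.0 to 54.6 CPM, and monocyte markers from 366 to 574 to 341 to 359 CPM. In KO these lists overlapped, at 17.5 to 65.8 and 42.3 to 88.5 CPM and at 413 to 842 and 248 to 692 CPM. Dendritic cell, macrophage and neutrophil markers overlapped between these days in both genotypes. Other ranges were set side by side for days 7 and 10. The summed CPM of 10 dendritic cell markers went from 2887 to 3520 on day 7 to 5683 to 7486 on day 10 in WT and from 3190 to 3803 to 5193 to 8382 in KO. Macrophage markers went from 1703 to 1887 to 1112 to 1138 CPM in WT and from 1694 to 2289 to 1146 to 1506 CPM in KO. Neutrophil markers went from 1527 to 3157 to 3861 to 5661 CPM in WT and from 2169 to 5569 to 2781 to 4552 CPM in KO. The ranges of both days did not overlap for the dendritic cell and macrophage lists in either genotype or for the neutrophil list in WT, and overlapped for the neutrophil list in KO. Monocyte markers overlapped in both genotypes, at 366 to 574 and 375 to 570 CPM in WT and 413 to 842 and 244 to 513 CPM in KO. Their part in the changes of the subunits between days was not tested.

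Paralog use was read as shares of summed TPM within a library. Arpc1b made up 82.4%, 82.6% and 81.3% of the 2 ARPC1 genes on day 7 in WT and 85.6%, 85.9% and 85.9% in KO. On day 8 the shares were 87.9%, 86.2% and 87.8% in WT and 88.2%, 87.9% and 87.6% in KO, and on day 10 they were 84.8%, 84.1% and 84.4% in WT and 85.5%, 86.8% and 85.4% in KO. The genotypes did not overlap on days 7, 9 and 10, and overlapped on day 8. Averaged over the 4 days, the share was 84.9% ± 0.413 in the 3 WT mice and 86.8% ± 0.251 in the 3 KO mice, a difference of 1.87 points. An exact two-sided permutation test over the mice gave p = 0.1, the smallest that 3 against 3 allows, and 0.15 after adjustment over the 3 paralog pairs. These means use the labelled numbers; after exchange of the KO numbers, which was added once the data had been seen, the KO mice had 86.6% to 87.1% and p was again 0.1 (exact permutation test, adjusted 0.3). With the labelled mouse numbers, the share changed from day 7 to day 10 by 1.219 points, upwards in 4 of 6 mice. The exact sign-flip test, two-sided, gave p = 0.125, adjusted 0.125, where the smallest possible p is 0.031. The group mean went from 82.1% to 84.4% in WT and from 85.8% to 85.9% in KO. The pooled 1.219 points is thus the change of neither genotype.

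**Figure D5:**
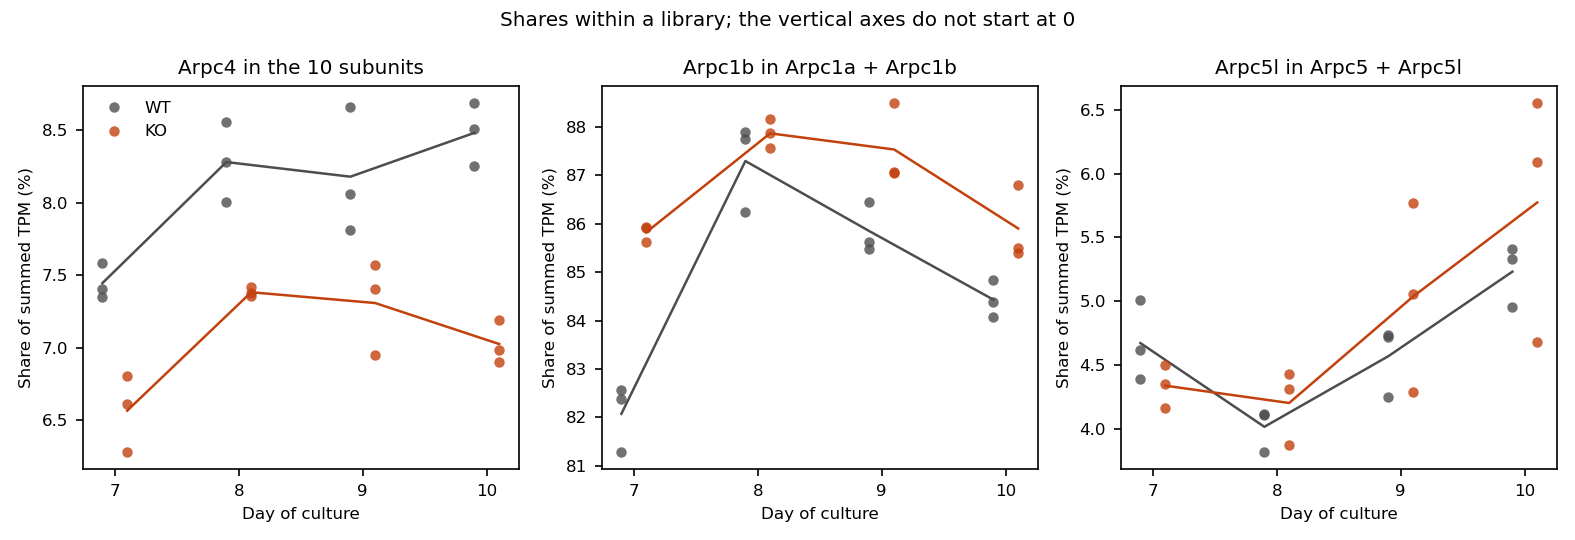
Shares of summed TPM within each library (points) and group means (lines) by day, WT in grey and KO in orange: Arpc4 in all 10 subunit genes (left), Arpc1b in the ARPC1 pair (middle) and Arpc5l in the ARPC5 pair (right); the axes do not start at 0. The KO points of Arpc4 lie below the WT points on each day, and the WT points of Arpc1b on day 7 are the lowest of that panel.

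Arpc5l made up 4.67% ± 0.311 of the ARPC5 pair on day 7 and 5.23% ± 0.243 on day 10 in WT, and 4.34% ± 0.167 and 5.77% ± 0.974 in KO. The change over the 6 mice was 1.00 point, upwards in 5 of 6 (exact sign-flip test, p = 0.0625, adjusted 0.0938). With the labelled KO numbers, the genotypes differed by 0.22 points in the mean over days (exact permutation test, p = 0.1, adjusted 0.15). With the exchanged numbers the KO mice, at 4.44% to 5.28%, overlapped the WT mice, at 4.58% to 4.70% (exact permutation test, p = 0.6, adjusted 0.8). Arpc1a and Arpc1b lie in the same direction on chromosome 5 with 5453 bases between them, and they share no stretch of 100 bases in their transcripts, nor do Arpc5 and Arpc5l.

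Over the 24 libraries, the 5 genes whose log2 CPM was most like that of Arpc4, among 5408 abundant genes, were Ssr1 (Pearson r = 0.86), Ndufa10 (0.86), Actb (0.85), Ccz1 (0.84) and Rps2 (0.83). Actb encodes beta-actin, the protein the complex assembles. Among the subunits, Arpc5 ranked 23rd of the 5408 (r = 0.80), Arpc2 113th (0.75) and Actr2 191st (0.73). Actr3 (0.41), Arpc1b (0.39), Arpc3 (0.39), Arpc5l (0.07) and Arpc1a (0.02) were less alike. The order was different for deviations from the group means, where differences between days and genotypes are removed. There r with Arpc4 was 0.77 for Arpc1b, 0.63 for Arpc3, 0.60 for Arpc1a, 0.54 for Arpc2 and 0.53 for Arpc5. It was 0.21 for Actr2, 0.20 for Arpc5l and 0.13 for Actr3. These are descriptions over libraries that share mice, genotypes and days.

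The regulators of the complex gave no call between the genotypes. Of 35 listed genes, 33 were tested, all but Wasf1 and Wasf3, and 0 were called by edgeR between KO and WT on any day or in either test of a difference in change. Unadjusted p-values under 0.05 were seen for 4, 2, 1 and 1 of the regulators on days 7 to 10, and for 1 and 0 in the tests of the change to day 10 and to day 8. Arpin, which encodes an inhibitor of the complex and was named after its values were seen, was among those on days 8, 9 and 10. Its day 7 level was 3.77 to 4.07 CPM in WT against 4.46 to 5.36 CPM in KO, followed by 3.64 to 4.87 and 5.63 to 6.67 on day 8, 3.35 to 4.04 and 4.63 to 5.89 on day 9, and 2.95 to 4.09 and 3.94 to 5.37 on day 10. The groups overlapped on day 10 and on no other day. The log2 fold changes were 0.28, 0.56, 0.43 and 0.46, with adjusted p of 0.409, 0.492, 0.411 and 0.431. The shares of all genes at that threshold were 15.7%, 5.91%, 8.15% and 7.3% on the 4 days and 6.31% and 4.71% in the tests of the change. The list was read against the shares of all genes given for the subunits. From day 7 to day 8, 8 rose and 8 fell in WT and 4 rose and 7 fell in KO, with a median log2 fold change of 0.02 and 0.07. These 16 and 11 of 33 stand beside 43.4% and 42% of all genes called.

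Among activators, Jmy, which encodes a nucleation promoting factor, fell from day 7 to day 8 by 0.65 in WT and by 0.66 in KO (adjusted p = 8.9e-05 and 7.11e-05), and Wasl, which encodes N-WASP, fell by 0.44 in WT (adjusted p = 0.00274). Was, which encodes WASP, and Washc1 rose in WT by 0.30 and 0.22 (adjusted p = 0.00309 and 0.0248), so that activators in WT were called 2 up and 2 down; these were named after their values were seen. Among partners in the WAVE complex, Abi3 fell by 0.96 in WT and by 1.09 in KO (adjusted p = 2.36e-07 and 4.85e-08), and Cyfip2 fell by 0.61 and 0.57. Abi3 then rose by 0.43 from day 8 to day 9 in WT (adjusted p = 0.0189). Washc5, a part of the WASH complex that acts on endosomes, rose by 0.68 and 0.50 to day 8, and fell by 0.34 from day 8 to day 9 in WT (adjusted p = 0.00925). Hcls1, the cortactin relative of blood cells, rose by 0.32 and 0.36, while Cttn, which encodes cortactin, fell by 0.85 in WT (adjusted p = 0.0128). Cdc42, a GTPase that switches on WASP, rose by 0.21 and 0.27, and Rac2, a GTPase that acts through WAVE, fell by 0.29 in KO (adjusted p = 0.0103).

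Among inhibitors and debranching factors, Ap1ar rose by 0.57 in WT and 0.39 in KO to day 8, and Coro1b fell by 0.40 and 0.52. From day 7 to day 10, 2 regulators rose and 6 fell in WT, and 3 rose and 5 fell in KO, which is 8 of 33 in each where 37% and 36.8% of all genes were called. Coro1a, a coronin of blood cells, rose by 0.56 in WT (adjusted p = 0.00868). Gmfg, which encodes a debranching factor, fell by 0.43 in KO (adjusted p = 0.00442). Cyfip1 fell by 0.41 and Wasl by 0.41 in WT, and Jmy fell by 0.29 in WT and by 0.50 in KO. On log2(TPM + 1), 3 of the 6 falls in WT changed sign (Abi1, Brk1 and Coro1b, at 0.04, 0.06 and 0.02, with Abi1 named after its values were seen), as did 1 of the 5 in KO (Brk1, at 0.04). The other falls to day 10 named here were smaller on that scale: in WT, Jmy had -0.01, Cyfip1 -0.12 and Wasl -0.12, and in KO Jmy had -0.17 and Gmfg -0.12. To day 8, falls were smaller and rises larger on that scale. Rac2 in KO had -0.06, Wasl in WT -0.20, Coro1b -0.17 in WT and -0.29 in KO, and Jmy -0.36 in each genotype. Cyfip2 had -0.37 and -0.34, Abi3 -0.72 and -0.85, Cttn -0.56 in WT, Hcls1 0.54 and 0.59, and Cdc42 0.44 and 0.50. Was and Washc1 in WT had 0.52 and 0.43, Washc5 had 0.90 and 0.72, and Ap1ar 0.73 and 0.57.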

How the data were processed

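Files of 3 kinds were used: unnormalised counts for each gene and TPM values for each gene, both as the authors deposited them, and the gene names that go with them. Per the submitters' processing notes, the build was mm10 and FastQC 0.11.9, STAR 2.6.1 and DESeq2 1.22.2 were used; the counter, its strand setting and the annotation release are not given in the sources used here. Per the labels' protocols, kits of 2 kinds were used, and which library used which is not stated. The deposited counts were tested with edgeR 4.0.16 in R 4.3.3: filterByExpr, TMM scaling, a quasi-likelihood fit of all 24 libraries with 1 coefficient per group (16 residual degrees of freedom) and Benjamini-Hochberg adjustment over the 14535 genes tested, with a threshold of 0.05. Intervals of 95% come from that fit, which treats the libraries of 1 mouse on different days as independent. The step was tested on simulated data. Deposited TPM values served for levels between genes and for shares, which were tested over mice by exact permutation. Replicates of a group differed by more than counting noise (chi-square per degree of freedom of 7.66 to 138), so none was merged. Promoters came from RefSeq on GRCm38.p6 and overlaps from GENCODE M21 on GRCm38.

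The members, lists and tests were chosen with earlier results of these data known. Of the 10 members, 1 is not reported here, though counts, medians and summed TPM over the 10 include it. The named genes were the other 9, up to 2 called regulators per class and comparison, the 5 genes most like Arpc4, and genes that overlap a subunit. Alternatives were DESeq2 1.42.0 (size factors and Wald test), 2 other filters on low counts, only the groups compared, limma 3.58.1 on log2(TPM + 1), Xist as a covariate, the mouse as a replicate block and each labelled mouse number left out. Paralog shares with exchanged KO numbers were added after the data were seen. The mouse numbers in the labels pair libraries across days: deviations from group means correlated by 0.45 on average in WT (0.11 to 0.70), by 0.004 in KO as labelled (-0.79 to 0.79) and by 0.56 in KO with the numbers of 64 and 68 exchanged on day 8 and of 64 and 67 on day 10.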

Additional observations from a re-analysis of the deposited data

How the results depend on the processing

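With limma on log2(TPM + 1), which changes the values, the scaling and the test together and moved the median of all genes by 0.17 between days 7 and 8 and by 0.23 (WT) and 0.25 (KO) between days 7 and 10, 8 subunits were called from day 7 to day 8 in WT and 8 in KO (46.8% and 46% of all genes), 8 from day 7 to day 10 in WT and 9 in KO (47.3% and 51.6%), and 0 from day 8 to day 9 in WT (3.58%). Signs then changed for Arpc1a to day 8 in WT (0.21), and to day 10 for Arpc2 (0.24 in WT and 0.30 in KO), Arpc3 (0.23 and 0.21), Arpc5 (0.21 and 0.29) and Actr3 (0.022 and 0.10). The DESeq2 Wald test called Arpc4 for KO against WT on day 10 (-0.28), making 1 subunit called (0.299% of all genes with an adjusted p). It called 2 subunits from day 8 to day 9 in WT and 1 in KO (10.3% and 7.35%). With no filter on low counts, 0 were called from day 8 to day 9 in WT (2.99% of all genes). In that setting 1 was called from day 7 to day 10 in each genotype (16.4% in WT and 16.3% in KO). With only the groups compared, 1 was called from day 7 to day 10 in KO (24.6%). The cause of these changes was not tested.

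The mouse as a replicate block, with the labelled numbers, gave 1 subunit called for KO against WT on day 7 (0.998% of all genes). It gave 3 from day 7 to day 10 in KO (37.3%) and 5 from day 7 to day 8 in KO (40.9%). Arpc4 for KO against WT on day 10 had -0.28. With the exchanged KO numbers the replicate block gave 2 calls from day 8 to day 9 in WT and 1 in KO (11.7% and 8.91% of all genes). It gave 4 from day 7 to day 10 in KO (44.1%). Without the replicate block, the change of the Arpc5l share (1.00 point) had an adjusted exact permutation p of 0.03. Leaving out 1 labelled mouse number at a time, which in KO may not be 1 mouse, gave 0 to 1 subunits for KO against WT on day 7. It gave 0 to 1 from day 8 to day 9 in WT and 0 to 1 from day 9 to day 10 in KO. From day 7 to day 10 it gave 1 to 3 in WT and 1 to 2 in KO. The share of all genes called moved too. On day 7 it was 0.0743% without WT 66 and 2.4% without KO 64. From day 8 to day 9 in WT it was 0.115% without WT 66 and 11.3% without KO 67. From day 9 to day 10 in KO it was 0% without WT 66 and 14.2% without KO 67. From day 7 to day 10 it was 22% without WT 66 and 40.3% without KO 67 in WT, and 21.9% without KO 64 and 39.6% without KO 67 in KO. Arpc4 for KO against WT ranged from -0.23 to -0.10, -0.22 to -0.16, -0.20 to -0.14 and -0.32 to -0.20 on the 4 days. A further 94 values that passed no threshold changed sign under some setting. With 3 mice per group, the half-width of the 95% intervals of the 9 subunits described reached 0.19 on the log2 scale between genotypes within a day and 0.27 in the tests of a difference in change.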
